A study of Gallus gallus with 6 samples.

Results

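Cathepsins are the proteases of the lysosome, and CSTA (cystatin A, also called stefin A) is a cytosolic inhibitor of those that use a catalytic cysteine. The genes CTSA, CTSB, CTSC, CTSD, CTSH, CTSK, CTSS, CTSZ and CSTA were chosen by name: every deposited transcript carrying one of these gene names was taken, and transcripts were summed by gene ID. This gave 9 genes with 13 transcripts, out of 16963 genes. All 9 passed the filter on low counts, among 12811 genes tested. The levels come from bulk RNA sequencing of COVCAR cells, which are chicken ovarian adenocarcinoma cells grown from the ascites fluid of birds with the disease. Cells of 3 primary lines, C27, C29 and C30 (replicates 1, 2 and 3), were grown to confluence, released with trypsin and sorted by FACS for their activity of aldehyde dehydrogenase (ALDH), which is used to enrich stem-like tumour cells. Each line gave 1 ALDH+ and 1 ALDH- library, so 3 ALDH+ libraries were set against 3 ALDH- libraries, and the question was how the sorted ALDH+ cells differ from the ALDH- cells. Both fractions of a line came from the same line's cells, with no genetic change or drug named in either. The birds' age and strain, the number of cultures per line, the passage, the ALDH assay and its gate are among the details not given in the sources used here.

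Cathepsins reach the lysosome as inactive precursors, mostly through mannose 6-phosphate receptors, and become active in its acid interior. CTSB, CTSC, CTSH, CTSK, CTSS and CTSZ are cysteine proteases, CTSD is an aspartic protease and CTSA is a serine carboxypeptidase. They degrade proteins taken up by the cell or delivered by autophagy, and some also act outside the cell on matrix, where cystatins hold the cysteine cathepsins in check. Macrophages are a cell type with abundant lysosomes and are common in ascites, and tumour cells also make several cathepsins. The roles given below are those known from human and mouse.

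Library totals ran from 22170788 to 26747453 estimated counts. ALDH1A3, a retinaldehyde dehydrogenase linked to the sorted activity, was higher in ALDH+ cells by 1.67 on the log2 scale (edgeR's quasi-likelihood test, adjusted p = 0.0228). ALDH1A1 (1.08, adjusted p = 0.453) and ALDH1A2 (-0.36, adjusted p = 0.570) did not pass. Of the epithelial markers, KRT7 averaged 2233 ± 1010 CPM (counts scaled to a common library total) in ALDH+ and 1435 ± 834 CPM in ALDH- libraries, while EPCAM was near absent at 0.992 ± 0.766 and 0.885 ± 0.853 CPM (SD, n = 3 each). Of 6 epithelial markers tested, 1 was lower and 0 were higher, and with the line as a block 1 was lower and 2 were higher. The lower one was CDH1 (E-cadherin), at 1.21 ± 0.417 CPM in ALDH+ and 20.5 ± 25.2 CPM in ALDH- libraries (SD, n = 3 each; log2 change -4.08, edgeR adjusted p = 0.0471). Its call was lost when any 1 ALDH+ library or the ALDH- cells of C30 were left out (adjusted p up to 0.15). The 2 higher with the block were KRT18 (1.25, adjusted p = 0.0224) and WT1 (1.497, adjusted p = 0.0331). Type I collagen was abundant in both fractions, with COL1A1 at 10910 to 22050 CPM in ALDH+ and 8904 to 17090 CPM in ALDH- libraries. In such bulk samples, fewer cells of a type and less RNA per cell cannot be told apart. P-values measure the spread between these 6 samples, with each line as 1 sample per fraction.

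Cathepsin and CSTA mRNA was lower in ALDH+ than in ALDH- cells throughout. The 8 cathepsins together took 0.331%, 0.275% and 0.174% of all counts in C27, C29 and C30 ALDH+ cells, against 1.14%, 1.90% and 1.93% in the ALDH- libraries. The means were 0.26% ± 0.0797 in ALDH+ and 1.66% ± 0.45 in ALDH- libraries (SD, n = 3 each), and the exact permutation test gave p = 0.1, two-sided, the smallest p that 3 against 3 allows. For each of the 9 genes all ALDH+ libraries lay below all ALDH- libraries, as they did for 14.6% of the genes tested. With an adjusted p under 0.05 as the threshold (edgeR, Benjamini-Hochberg over all genes tested), 8 of the 9 genes were lower in ALDH+ cells, where 5.3% of all genes were. None of the 9 was higher, where 0.835% of all genes were. DESeq2 also called none of the 9 higher, where it called 654 of all 12811 genes higher. None was higher at an unadjusted p under 0.05 in edgeR, for which the share of all genes was not taken. The gene that did not pass was CTSK. The median log2 change of the 9 was -2.30, beside 0.00 over all genes. Blocking on the line, the fit also called 8 of the 9 lower and none higher, against 7.6% and 5.92% of all genes. The 9 genes were chosen with earlier results of these data known, so these counts are no independent test against the shares of all genes.

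**Figure D1:**
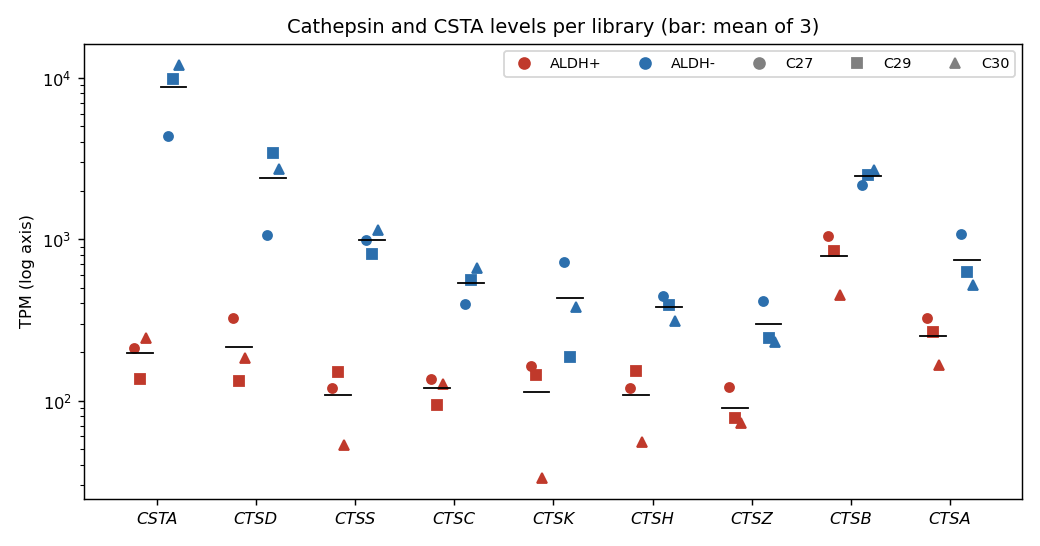
Level of each gene in each library, in TPM (abundance corrected for transcript length) on a log axis; red points are ALDH+ and blue points ALDH- libraries, shapes mark the lines and bars are means of 3. Every gene has its red points below its blue points, and CSTA is farthest apart, at 136 to 244.9 TPM in ALDH+ and 4363 to 12070 TPM in ALDH- libraries.

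Per length, the order of the genes differed between the fractions. In ALDH+ libraries CTSB led with a mean of 784 TPM and did not overlap with CTSA, the next at 252 TPM. CTSA, CTSD (215 TPM) and CSTA (198 TPM) overlapped one another. Below them CTSC, CTSK, CTSH, CTSS and CTSZ lay between means of 119 and 90.3 TPM, each overlapping the next. In ALDH- libraries CSTA led with a mean of 8739 TPM and lay above every cathepsin in all 3 lines. CTSB (2452 TPM) and CTSD (2403 TPM) followed with overlapping ranges, then CTSS at 983 TPM and CTSA at 743 TPM. CTSC, CTSK, CTSH and CTSZ came last, from 538 down to 296 TPM, and neighbours in that order overlapped too.

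CTSD, the aspartic protease of the lysosome and a general degrader of proteins there, had the lowest fitted log2 change among the cathepsins over the 3 lines together. Its TMM-scaled CPM were 729, 377 and 446 in C27, C29 and C30 ALDH+ cells, against 2935, 11400 and 11310 in the ALDH- libraries. The ALDH- library of C27 lay well below the other ALDH- libraries, yet it was 4.03-fold above the highest ALDH+ library. CTSD averaged 517 ± 186 CPM in ALDH+ and 8547 ± 4860 CPM in ALDH- libraries (SD, n = 3 each). The fitted log2 change was -4.05 (SE 0.608, edgeR adjusted p = 0.00658), a level 16.5-fold lower in ALDH+ cells. CTSD alone made up 0.0812%, 0.0377% and 0.0479% of all counts in C27, C29 and C30 ALDH+ cells, against 0.305%, 1.08% and 0.937% in the ALDH- libraries. CTSS had the larger fall in C27 and C30, and also in the fit that left out the ALDH+ cells of C29 (-4.11, against -3.87 for CTSD). In C27 the differences of CTSA, CTSH, CTSK and CTSZ were larger than that of CTSD as well. The ratio of CTSD to CTSS overlapped between the fractions (exact permutation p = 0.8).

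Of the cysteine proteases that cut inside proteins, CTSS had the lowest fitted log2 change, and CTSB was the most abundant in both fractions. CTSS, which trims the invariant chain from class II molecules in antigen-presenting cells, had 101, 161 and 48.2 CPM in C27, C29 and C30 ALDH+ cells, against 1025, 1016 and 1819 CPM in ALDH- libraries. Its log2 change was -3.64 (SE 0.505, edgeR adjusted p = 0.00454), or 12.4-fold lower, and C30 was the lowest of the ALDH+ and the highest of the ALDH- libraries. CTSB, a broadly made protease that cuts inside proteins and also removes dipeptides from their ends, had 1233, 1261 and 573 CPM in ALDH+ libraries, against 3114, 4348 and 5894 CPM in ALDH- libraries. Its log2 change was -2.12 (SE 0.42, edgeR adjusted p = 0.0224), or 4.36-fold lower. The C30 pair was again the widest apart. The CTSB call was lost when the ALDH+ cells of C27 (adjusted p = 0.0705) or C29 (0.063) were left out, and likewise the ALDH- cells of C29 (0.0682) or C30 (0.077). CTSK, the collagen-degrading protease of osteoclasts, had 110, 123 and 24.2 CPM in ALDH+ libraries, against 597, 187 and 484 CPM in ALDH- libraries. The groups did not overlap, but the ALDH- library of C29 stood only 1.52-fold above the ALDH+ library of the same line, which was the highest of that fraction. The log2 change of CTSK was -2.30 (SE 0.648) with an edgeR adjusted p of 0.0883, and 0.0577 with the line as a block, so it did not pass. DESeq2 called it (adjusted p = 0.00448). In the authors' deposited table the CTSK transcript had a log2 change of -2.3 and a false discovery rate of 0.0103, with an adjusted p of 1.0.

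The cysteine proteases that trim protein ends were lower by 4.38-fold to 6.5-fold, with different spreads. CTSC (dipeptidyl peptidase I, which activates granule proteases of immune cells by removing a dipeptide) had 171, 151 and 173 CPM in C27, C29 and C30 ALDH+ cells, against 615, 1046 and 1562 CPM in ALDH- libraries. The ALDH+ libraries were close together at 165 ± 12.2 CPM, while the ALDH- libraries were spread at 1074 ± 474 CPM (SD, n = 3 each). Its log2 change was -2.70 (SE 0.37, edgeR adjusted p = 0.00429), or 6.5-fold lower. CTSH, an aminopeptidase, had the opposite pattern of spread. It had 114, 182 and 56.7 CPM in ALDH+ libraries, against 517, 549.5 and 549.6 CPM in ALDH- libraries, which were nearly level. Its log2 change was -2.19 (SE 0.409, edgeR adjusted p = 0.0176), or 4.58-fold lower. That call was lost when the ALDH+ cells of C27 (adjusted p = 0.0739) or the ALDH- cells of C29 (0.0553) or C30 (0.0587) were left out. CTSZ, a carboxypeptidase that removes single residues, had 141, 114.5 and 90.6 CPM in ALDH+ libraries, against 593, 422 and 502 CPM in ALDH- libraries. Both fractions were tight, and the log2 change was -2.13 (SE 0.27, edgeR adjusted p = 0.00321), or 4.38-fold lower.

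CTSA, the serine carboxypeptidase that also protects beta-galactosidase and neuraminidase in a lysosomal complex, had the smallest fitted fall over the 3 lines among the genes that passed. It had 370, 384 and 204 CPM in C27, C29 and C30 ALDH+ cells, against 1511, 1062 and 1116 CPM in the ALDH- libraries. Its log2 change was -1.94 (SE 0.33, edgeR adjusted p = 0.0117), or 3.85-fold lower. In C27 the log2 differences of CTSB (-1.34), CTSC (-1.84) and CTSD (-2.01) were smaller than that of CTSA (-2.03). In the fit that left out the ALDH- cells of C30, CTSB had -1.81, against -1.95 for CTSA. The ratio of CTSA to CTSB overlapped between the fractions (exact permutation p = 0.8). Of the partners in that complex, GALNS, a sulfatase, fell by 1.22 on the log2 scale (adjusted p = 0.012), and GLB1, the beta-galactosidase, had a log2 change of 0.14 (adjusted p = 0.793). The GALNS call was lost when C27 or C29 ALDH+ cells or C30 ALDH- cells were left out (adjusted p up to 0.0635). In the reference annotation the span of CTSA overlaps those of ZSWIM3 and ZSWIM1, and that of CTSK overlaps CTSS. Whether the deposited counts used strand is not stated in the sources at hand.

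CSTA showed the widest difference of the 9 genes. It had 34.7, 28.3 and 44.2 CPM in C27, C29 and C30 ALDH+ cells, against 843, 2387 and 3815 CPM in the ALDH- libraries. The lowest ALDH- library was 19.1-fold above the highest ALDH+ library. The means were 35.7 ± 7.98 CPM in ALDH+ and 2348 ± 1490 CPM in ALDH- libraries (SD, n = 3 each), so the relative spread was larger among ALDH- libraries. The log2 change was -6.04 (SE 0.624, edgeR adjusted p = 0.00155), a level 65.7-fold lower in ALDH+ cells. CSTA lies next to CSTB in the reference annotation. CSTB (cystatin B), the other cytosolic stefin, had 58.9, 54.0 and 31.1 CPM in ALDH+ libraries, against 139, 149.7 and 140 CPM in ALDH- libraries. It fell by 1.57 on the log2 scale (SE 0.276, adjusted p = 0.0138), with no overlap between the fractions. The CSTB call was lost without the C29 library of either fraction (adjusted p = 0.0511 for ALDH+ and 0.0515 for ALDH-) or the ALDH- library of C30 (0.0551), and on log2 TPM values.

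The balance of CSTA to cathepsin mRNA also differed. The TPM of CSTA divided by the summed TPM of the 8 cathepsins was 0.0895, 0.073 and 0.214 in C27, C29 and C30 ALDH+ cells, against 0.598, 1.12 and 1.395 in the ALDH- libraries. In ALDH- cells of C29 and C30 there was thus more CSTA than cathepsin mRNA per length, and in ALDH+ cells of every line there was less. On the CPM scale the log2 ratio differed by -2.95 on average (-6.07 ± 0.766 in ALDH+ and -3.12 ± 0.546 in ALDH- libraries, SD, n = 3 each). The exact permutation test gave p = 0.1, the smallest possible. The sum includes CTSA and CTSD, which stefins do not inhibit. CSTA is the only inhibitor in this ratio. CST3, a secreted inhibitor, had 1698, 720 and 549 TPM in C27, C29 and C30 ALDH+ cells, more than CSTA in each. In the ALDH- libraries it had 1383, 823 and 920 TPM, less than CSTA in each. A ratio that counts CST3 and CSTB as well was not taken.

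**Figure D2:**
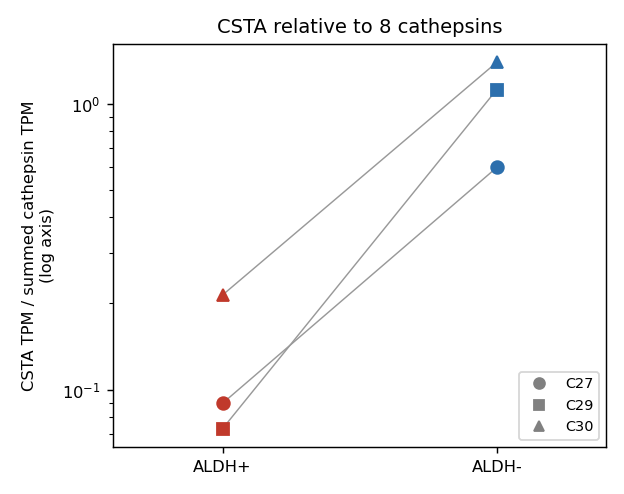
Ratio of CSTA TPM to the summed TPM of the 8 cathepsins in each library, on a log axis, with a line joining the ALDH+ and ALDH- library of each cell line. All 3 lines have the lower ratio in ALDH+ cells, at 0.073 to 0.214 against 0.598 to 1.395 in ALDH- cells.

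The 3 lines agreed in direction for every gene and differed in size. On TMM-scaled CPM, C30 had the largest fall for 8 of the 9 genes, and C29 had it for CTSD. The C30 pair had unlike TMM factors, 1.077 in ALDH+ and 0.832 in ALDH-. On TPM the largest fall was in C29 for CSTA and CTSC as well, and in C27 for CTSA and CTSZ. CSTA had 136 against 9785 TPM in C29, and 244.9 against 12070 TPM in C30. As a share of counts CSTA also fell most in C29. The smallest fall was in C27 for 4 genes and in C29 for 5. The lines were closest for CTSZ, with log2 changes of -2.07, -1.88 and -2.47 in C27, C29 and C30. They were farthest apart for CTSK, with -2.43, -0.60 and -4.32. CTSD had -2.01, -4.92 and -4.66, and CSTA had -4.60, -6.40 and -6.43, so for both C27 showed the smallest fall. For CTSS the order was another, with -3.34, -2.65 and -5.24. Each of these values compares 1 library with 1 library and has no test, and a difference between lines in the effect of the fraction has no residual degrees of freedom here. An F test of the line, with the fraction in the model, called 0 of the 9 genes (edgeR, lowest unadjusted p = 0.123), beside 0.367% of all genes. DESeq2 and edgeR with library size only also called 0 of 9, beside 9.45% and 3.27% of all genes.

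**Figure D3:**
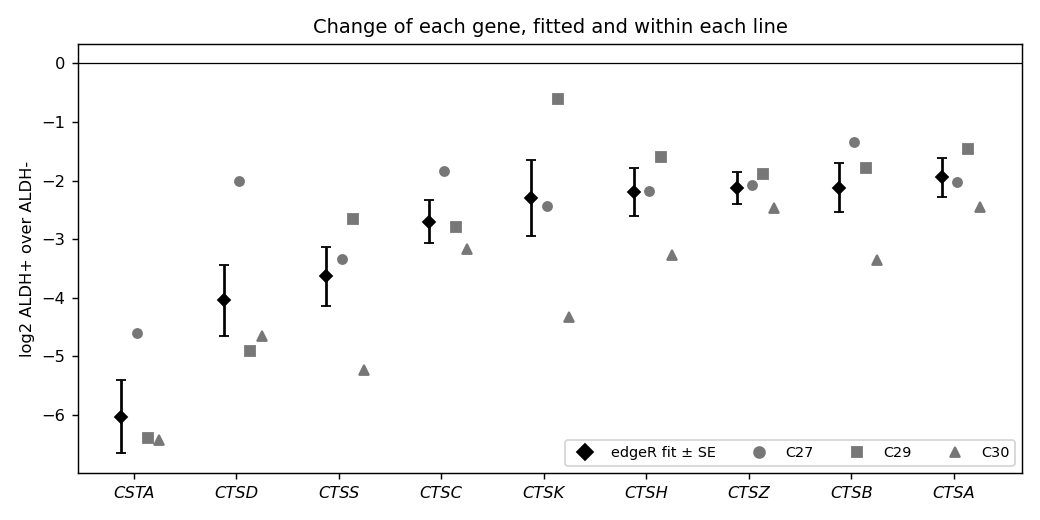
Log2 of ALDH+ over ALDH- for each gene: black diamonds are the edgeR estimates with their standard errors, and grey shapes are the ratios within C27, C29 and C30, each from 1 library per fraction. All points lie below 0; the 3 lines are widest apart for CTSK and closest for CTSZ.

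Because the genes did not fall equally, the make-up of the summed mRNA of the 8 cathepsins differed between the fractions. CTSV, a cathepsin outside the 8, is not in these shares, with means of 453 TPM in ALDH+ and 840 TPM in ALDH- libraries. CTSB took 44.5%, 45.5% and 39.6% of the summed cathepsin TPM in C27, C29 and C30 ALDH+ cells, against 29.7%, 28.6% and 31.1% in the ALDH- libraries. CTSS took 5.07%, 8.08% and 4.61% in ALDH+ libraries, against 13.6%, 9.25% and 13.3% in ALDH- libraries. Neither gene's shares overlapped between fractions (exact permutation p = 0.1 for each, the smallest possible). The share of CTSD was 13.8%, 7.13% and 16.2% in ALDH+ libraries, against 14.7%, 39.3% and 31.3% in ALDH- libraries, and it overlapped because the ALDH- share of C27 lay within the ALDH+ range. Shares of CTSA, CTSC, CTSH, CTSK and CTSZ overlapped too. Among the 36 ratios of one member to another within a library, 12 did not overlap between the fractions: 6 of the 8 ratios with CSTA and 6 of the 28 among cathepsins. The 6 among cathepsins were those of CTSS to CTSA, CTSB, CTSH and CTSZ and of CTSD to CTSB and CTSC. Each had an exact permutation p of 0.1, and 0.3 after adjustment over the 36 ratios. As 0.1 is the smallest p that 3 against 3 allows, no ratio could have passed. The 36 ratios share their genes and are not independent, and the share of all gene pairs that do not overlap was not taken.

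**Figure D4:**
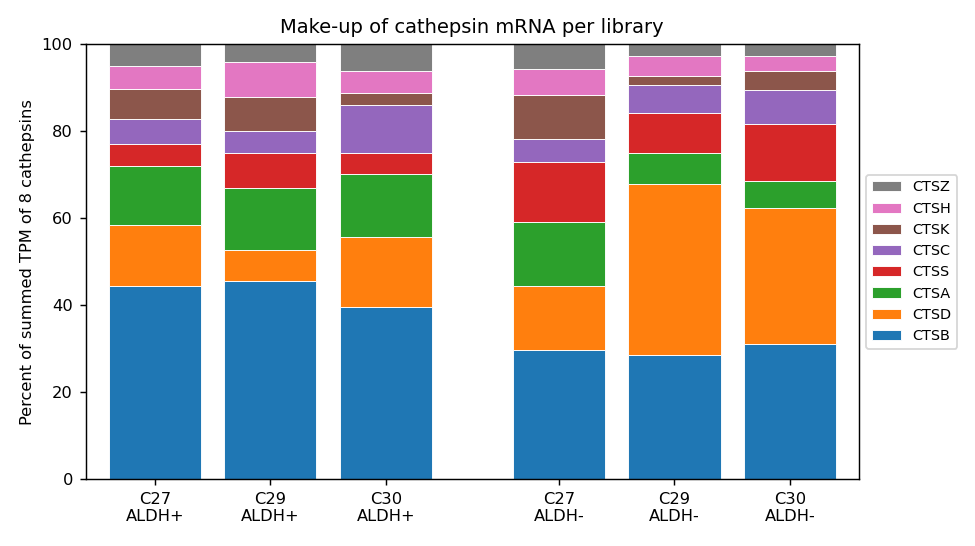
Share of each cathepsin in the summed TPM of the 8 cathepsins, as stacked bars from 0 to 100%, with the ALDH+ libraries on the left and the ALDH- libraries on the right. CTSB takes 39.6% to 45.5% in ALDH+ and 28.6% to 31.1% in ALDH- libraries; CTSD is largest in the ALDH- libraries of C29 and C30.

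Nearly all reads of each gene came from 1 transcript. CTSB, CTSC, CTSD, CTSH, CTSK and CSTA have a single deposited transcript, and all of these but CTSH had whole-number counts in every library. For CTSA, CTSS and CTSZ the leading transcript held at least 96.1% of the gene's TPM in every library. The authors' deposited table gives log2 changes per transcript of -6.0 for CSTA, -4.0 for CTSD, -3.6 for the leading CTSS transcript, -2.7 for CTSC and between -2.3 and -1.9 for the leading transcripts of the other genes. A test per transcript in edgeR called 7 of the 9 leading transcripts lower, and the share of all transcripts it called was not taken. CTSB (adjusted p = 0.0505) and CTSK (0.162) did not pass.

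The cathepsins and cystatins outside the 9 genes behaved less alike. CTSV, which carries cathepsin L as a synonym in the reference table, had 609, 536 and 280 CPM in C27, C29 and C30 ALDH+ cells, against 1164, 1112 and 1943 CPM in ALDH- libraries. The fractions did not overlap, but the log2 change of -1.57 (SE 0.384) had an adjusted p of 0.0541, and 0.0477 with the line as a block. CTSO, a poorly known cysteine cathepsin, was the one family member with a higher mean in ALDH+ libraries and an unadjusted p under 0.05. It had 37.4 ± 7.89 CPM in ALDH+ and 21.9 ± 7.86 CPM in ALDH- libraries (SD, n = 3 each), with an edgeR adjusted p of 0.227. TINAGL1, a cathepsin-like protein that is no active protease, had a log2 change of 0.51 (adjusted p = 0.592). So 0 of these 3 tested genes passed, and with the block 1 did. CTSE, CTSEAL and TINAG had at most 23 counts over all libraries and were not tested. CST3 (cystatin C), the secreted inhibitor, averaged 516 ± 260 CPM in ALDH+ and 769 ± 124 CPM in ALDH- libraries (SD, n = 3 each), with overlapping fractions, a log2 change of -0.58 (SE 0.38) and an edgeR adjusted p of 0.435. CST7, FETUB, AHSG and KNG1 had at most 44 counts over all libraries.

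Other lysosomal proteases and serpins split. Of 9 tested, 4 fell and 5 did not pass, with a median log2 change of -0.82. The 4 were PRCP (-3.03, adjusted p = 0.00623) and SCPEP1 (-2.05, adjusted p = 0.00224), both serine carboxypeptidases, TPP1 (-2.32, adjusted p = 0.0437), a tripeptidyl peptidase, and LGMN (-1.19, adjusted p = 0.032), the endopeptidase that matures several cathepsins. TPP1 and LGMN each lost the call in 5 of the 6 fits that leave out 1 library (adjusted p up to 0.155 and 0.14); TPP1 kept it only without the ALDH+ library of C30, and LGMN only without the ALDH- library of C27. SERPINB10, SERPINB1 and SERPINB6, CPQ and DPP7 had log2 changes between -0.82 and 0.40. Of 11 tested genes that sort enzymes to the lysosome, 0 passed in edgeR (6 had an unadjusted p under 0.05, DESeq2 called 3 and limma-voom 0), with a median of -0.71. With the line as a block 4 passed, all lower, and these were SCARB2, PSAP, M6PR and GGA1; with the block and library size only 1 passed. Of the regulators of lysosomal genes, TFEB had a log2 change of -0.85 (adjusted p = 0.198) and MITF of -0.30 (adjusted p = 0.71).

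Some genes that work with single cathepsins in specialised cells also fell. In antigen processing, where CTSS acts, 2 of 6 tested genes fell and none rose, with a median log2 change of -2.54. These were IFI30 (-4.90, adjusted p = 0.00206), a lysosomal thiol reductase, and the class II beta chain BLB2 (-3.04, adjusted p = 0.00929). The invariant chain gene CD74 (-2.10, adjusted p = 0.0718) and BLB1 (-2.97, adjusted p = 0.0845, and 0.0212 with the block) did not pass, and DMA (0.42) and DMB2 (0.81), whose human counterparts load class II molecules, had positive log2 changes that did not pass either. Among osteoclast genes beside CTSK, 4 of 9 fell, with a median of -1.67. ATP6V0D2, a proton pump subunit, had 4.67 ± 1.16 CPM in ALDH+ and 193 ± 84.6 CPM in ALDH- libraries (SD, n = 3 each), and ACP5, the tartrate-resistant acid phosphatase, 38.9 ± 20.5 and 1211 ± 495 CPM. Their log2 changes were -5.36 and -4.96 (edgeR adjusted p = 0.0011 and 0.00233). DCSTAMP, needed for fusion of osteoclast precursors (-3.51, adjusted p = 0.0258), and CKB, a creatine kinase (-1.67, adjusted p = 0.0175), also fell. DCSTAMP lost the call without any single ALDH+ library (adjusted p up to 0.082), and CKB without the C27 or C30 ALDH+ or the C29 or C30 ALDH- library (up to 0.068). Of the others, NFATC1 (1.24, edgeR adjusted p = 0.127) and ITGB3 (0.85, 0.391) had positive log2 changes that did not pass. CA2 (-1.78, 0.083) and TNFRSF11A (-0.48, 0.565) had negative ones that did not pass either. CALCR had 1 count over all libraries and was not tested. With the block 6 fell and 1, the transcription factor NFATC1, rose (1.37, adjusted p = 0.0245). Matrix genes that cathepsins can degrade, and the metalloproteinase MMP2, had log2 changes from 0.52 to 1.68 over 8 tested genes. Of these, 0 passed in edgeR (2 had an unadjusted p under 0.05). The metalloproteinase MMP9, counted among the osteoclast genes, went the other way (-1.40, edgeR adjusted p = 0.35, and 0.00553 with the block). FN1, fibronectin, passed in DESeq2 and in limma-voom. With the line as a block and library size only, 5 of the 8 were higher: FN1, LAMB1, COL1A2, ELN and COL3A1 (edgeR adjusted p = 0.0154 to 0.045). That setting, added here after the data were seen, called 1269 of all 12811 genes higher, against 107 with TMM and no block. COL1A1, COL1A2, COL3A1 and DCN of this list are also counted among the fibroblast markers below.

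Most macrophage markers shared the direction of the cathepsins, though not the size of the fall. The deposited data hold 17 of the macrophage markers and 16 were tested; 15 were lower in ALDH+ cells and CEBPB (-0.17, adjusted p = 0.746) did not pass. Their median log2 change was -5.06, and their summed level was 441 to 638 CPM in ALDH+ libraries, against 5521 to 10350 CPM in ALDH- libraries. CEBPB made up most of the ALDH+ sums, with 353 of 638, 448 of 617.5 and 269 of 441 CPM in C27, C29 and C30. In the ALDH- libraries it had 400, 366 and 439.5 CPM. SPI1, the transcription factor that defines myeloid cells, had 8.36 ± 2.01 CPM in ALDH+ and 266 ± 96.3 CPM in ALDH- libraries (SD, n = 3 each). No macrophage marker was at 0 in all ALDH+ libraries. Of the markers of heterophils and mast cells, 4 of 5 tested were lower as well. Lymphocyte markers split: of 6 tested, IKZF1, BLK and CD5 were lower. CD3E (log2 change 1.29, edgeR adjusted p = 0.197), CD3D (-0.585, 0.531) and LCK (-0.193, 0.839), which like CD5 are T-cell genes, did not pass. All of these T-cell genes were scarce, with group means of at most 2.67 CPM, and CD5 averaged 0.0301 CPM in ALDH+ and 1.29 CPM in ALDH- libraries. The CD5 call was lost without the C27 or C30 ALDH+ library or the C30 ALDH- library (edgeR adjusted p up to 0.0844). Of 12 fibroblast markers 0 passed (4 had an unadjusted p under 0.05, all higher, and with the block 4 rose). Each of the 9 genes still had 599 to 36721 counts in every ALDH+ library. The part of macrophages and other immune cells in the lower cathepsin and CSTA levels was not tested.

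**Figure D5:**
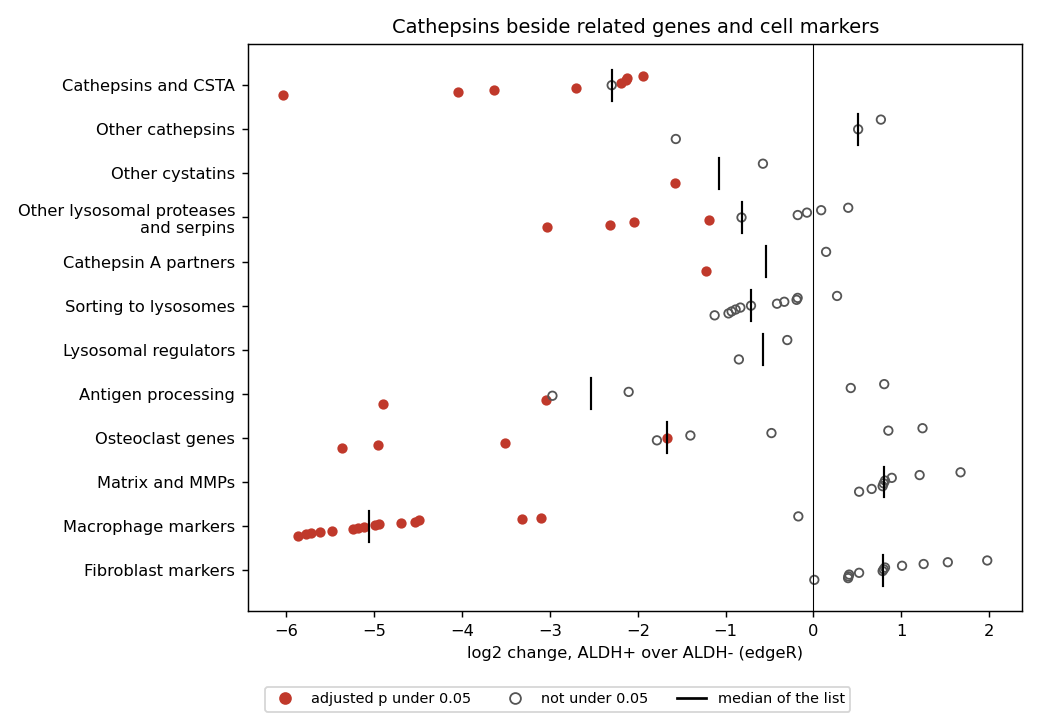
Log2 change (ALDH+ over ALDH-, edgeR) of every tested gene in each list; filled red points have an adjusted p under 0.05, open points do not, and black ticks are medians. The 8 red points of the top row lie between -6.04 and -1.94, and the macrophage markers have a median of -5.06.

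Set against those markers within each library, the genes did not move as one. The log2 CPM of each gene minus the mean log2 CPM of the 16 macrophage markers was used, a measure chosen after the values were seen. The markers' mean differed by -3.96 in C27, -4.75 in C29 and -5.49 in C30, ALDH+ minus ALDH-. Relative to it CTSA was higher in ALDH+ libraries by 2.75, CTSZ by 2.59, CTSB by 2.57, CTSH by 2.39, CTSK by 2.28 and CTSC by 2.13, and CTSS by 0.99, all with no overlap between the fractions (exact permutation p = 0.1 each, the smallest possible). CTSD differed by 0.87 and CSTA by -1.08, with overlapping fractions (exact permutation p = 0.3 and 0.2). Any gene that fell less than the markers' mean, or not at all, comes out higher in ALDH+ libraries on this measure. The values thus restate the size of each fall beside that of the markers, and the share over all genes was not taken. Of the 16 markers 13 had a larger fitted fall than CTSD and 0 a larger one than CSTA.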

How the data were processed

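RNA-seq of 3 ALDH+ and 3 ALDH- libraries, 1 per line and fraction, was analysed from the authors' tables of 28756 transcripts. The submitters' processing notes name FastQC, Trimmomatic, HISAT2, kallisto, DESeq2 and the GRCg6a build, without versions or order. The authors deposited an estimated count (expected count) and a TPM for each transcript. Their comparison table, as deposited, holds a signal (count divided by a size factor), a ratio of ALDH+ to ALDH-, log2 fold changes, p-values, and, as a score, a Wald statistic and a number of false positives to be expected. Transcript lengths, an other value, are given per the file headers. Neither the fraction's gate nor strandedness is given in the sources used here.

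Estimated counts were summed by gene ID and rounded. Transcripts without an ID (319, with 0.285% to 0.328% of counts) were left out. Totals of 22170788 to 26747453 counts per library set the precision. edgeR 4.0.16 in R 4.3.3 was used (quasi-likelihood test, TMM, filterByExpr on the groups, minimum count 10, minimum total 15), two-sided, with Benjamini-Hochberg adjusted p under 0.05 over the 12811 genes tested. All adjusted p values are from it unless another tool is named. CPM are TMM-scaled and ± is the SD. The scripts were tested on simulated data.

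Same-numbered libraries come from the same line, which the labels name, so the line was also fitted as a block. Deviations from the group means correlated within lines at r = 0.66, 0.17 and 0.49 (C27, C29, C30), and the block took the common dispersion to 0.077, against 0.152 in the fit lacking it. Alternatives were DESeq2 1.42.0, limma-voom (limma 3.58.1), other scalings, no filter, log2 TPM with pseudocounts of 1 and 0.1, single transcripts, and leaving out each library. The text names all members, transcripts with at least 5% of a gene, detected cathepsins and cystatins, up to 4 genes of each related list by smallest p, and the 3 named genes nearest to each member; genes outside this rule were chosen after their values were seen. Members and lists were chosen with earlier results of these data known. Gene names of all 9 members were found in the RefSeq table of another build (GRCg7b), used only for synonyms and neighbours, so no positions or sequences are given.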

Additional observations from a re-analysis of the deposited data

How the results depend on the processing

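The number of the 9 genes called lower was 8 and lay between 6 and 9 under the 18 alternatives, and 0 were called higher under any of them. CSTA, CTSD, CTSS, CTSZ and CTSC kept their call under all 17 alternatives run per gene. CSTA ranged from -6.40 to -5.38 on the log2 scale, with adjusted p up to 0.0163. CTSD ranged from -4.41 to -3.42. On log2(TPM + 1) with no filter CTSA (adjusted p = 0.0827) and CTSB (0.0648) did not pass. CTSK passed with DESeq2 and with the line as a block and library size only (0.0214), and CTSV with the block (0.0477), DESeq2 (0.00299) and limma-voom (0.0442). Calls lost without 1 library are given beside CTSB, CTSH and CSTB. The replicate block changed no other call among the members. Over all genes 679 were lower and 107 higher. The higher count was 758 with the block, 1269 with the block and library size only, 654 with DESeq2, 268 on log2(TPM + 1) and 238 on log2(TPM + 0.1), and the lower count was 432 on log2(TPM + 1) with no filter. Leaving out 1 library gave 425 (ALDH+ of C29) to 753 lower, with 430 without ALDH- of C30, and 13 (ALDH- of C29 or C30) to 370 (ALDH- of C27) higher, with 42 to 50 without any 1 ALDH+ library. Of 52 genes in the related lists 12 were lower, against 20 with the block, 19 with DESeq2, 6 on log2(TPM + 1) with no filter and 7 to 12 without 1 library (7 without ALDH+ of C27 or C29 or ALDH- of C30). None was higher, against 1 with the block (NFATC1), 2 with DESeq2 (NFATC1 and FN1), 1 with limma-voom, 1 on each filtered log2 TPM scale (FN1), 7 with the block and library size only (NFATC1, ITGB3 and 5 matrix genes) and 0 to 1 without 1 library (NFATC1, without ALDH- of C27). For all genes and the related lists, the block with library size only was added after the data were seen. The cause of these shifts was not tested. The difference in the log2 ratio of CSTA to cathepsins was -3.13 on TPM and -3.39 to -2.68 without 1 library; an exact sign-flip permutation test over the 3 lines gave p = 0.25, the smallest it can give. The share of counts taken by cathepsins was lower by 1.26 to 1.66 percentage points without 1 library, and by 0.644 percentage points as a share of TPM. The median log2 change of all genes, 0.003 with TMM, moved to 0.119 under upper quartile scaling, 0.175 under library size alone, and 0.362 and 0.408 on log2 TPM with pseudocounts of 1 and 0.1, and the 9 genes stayed lower by more than 1.5 on each of these scales. With 3 lines, each difference within a line rests on 1 library per fraction, and the counts cannot separate the RNA of different cells.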

Other observations

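The genes whose pattern over the 6 libraries lay nearest to each of the 9 were looked up among 7347 named genes with a mean of at least 10 CPM, by the root mean square distance of log2 CPM centred over the libraries. This is a description over 6 libraries that differ mainly by fraction, so any gene with a like fall is near. CSTA lay nearest to TREM-B2, a receptor gene of the TREM family (distance 0.191, log2 change -5.89), then to HAVCR1 (0.311) and P2RY13 (0.357). CTSD lay nearest to GPNMB, a lysosomal glycoprotein of macrophages and melanocytes (0.353, log2 change -4.54), followed by GCNT7 (0.459) and the retinol-binding protein RBP7 (0.466). Only 6 genes lay within 0.5 of CTSD and 8 of CSTA, beside 105 of CTSB and of CTSZ and 102 of CTSA. CTSB had the closest single neighbour, the myeloid receptor SIRPA (0.095, log2 change -2.18, edgeR adjusted p = 0.0238). CTSS lay nearest to MECR (0.166) and ARHGAP45 (0.201), and CTSC to ABHD12 (0.144) and LTA4H, a leukotriene-forming hydrolase (0.171).

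CTSZ lay nearest to the carboxypeptidase SCPEP1 (0.12) and to CTSA (0.195), and CTSA to the secreted protease HTRA1 (0.128), TMEM55A (0.148) and the acid ceramidase ASAH1 (0.172). CTSH lay nearest to COASY (0.237), the ferritin heavy chain FTH1 (0.253) and PLBD1 (0.289). CTSK had the loosest neighbours of the cysteine cathepsins, SULT1B (0.395), DPEP2 (0.408) and TPP1 (0.42).

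CTSV was the one cathepsin with a sizeable second transcript. Its shorter transcript of 979 bases held 45.9%, 29.3% and 37.7% of the gene's TPM in C27, C29 and C30 ALDH+ cells, against 41.7%, 5.29% and 7.88% in the ALDH- libraries. In C29 and C30 the share was higher in ALDH+ cells, and in C27 the fractions were close. The longer transcript of 2202 bases had a log2 change of -1.72 (edgeR adjusted p = 0.0881) and the shorter one of -0.21 (adjusted p = 0.919), and neither passed.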
